A study of Mus musculus with 298 samples.

Results

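Blood of mice in late chronic myeloid leukaemia (CML) was compared with blood of control mice taken in the same weeks, 14 to 18. A CML mouse entered if it reached week 16, which left 4 mice of 6 in the CML cohort (numbers 480, 541, 542 and 487), against all 3 control mice (488, 489 and 490). These 7 mice of the 20 in the series gave 33 of its 298 libraries, 18 from CML mice and 15 from control mice. Mouse 542 had libraries at weeks 14, 15 and 16 only, and every other mouse had all 5 weeks. All mice, the controls included, were C57BL/6 animals of the SCLtTA/BCR-ABL line, heterozygous for both parts (tTA+/-, BCR-ABL+/-), of both sexes and 6 to 8 weeks old at the start. In this Tet-off line the tTA activator, placed under the Scl regulatory element that is active in blood stem and progenitor cells, drives human BCR-ABL unless tetracycline is present. Control mice stayed on tetracycline water at 0.5 g/L, and in CML mice it was withdrawn after the week 0 sample. Blood was drawn weekly until week 18 or until a mouse was moribund, so the CML mice described here are those that lasted to week 16.

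BCR-ABL is a fusion kinase that is always active and signals through STAT5, RAS and PI3K pathways. In chronic-phase CML it expands granulocytes and their precursors in bone marrow, spleen and blood, often with more platelets and basophils. Neutrophils load their granules in a fixed order while they mature: primary granules in promyelocytes, secondary granules in myelocytes and metamyelocytes, and the products of mature cells last. Transcripts of the early granule proteins are therefore scarce in blood that holds only mature neutrophils. RNA was taken from whole blood, although the labels name mononuclear cells as the tissue, and haemoglobin, platelet and granulocyte genes were all abundant. In such bulk RNA, fewer cells of a type and less RNA per cell cannot be told apart.

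Values are TPM, a transcript abundance corrected for gene length and library total, rescaled per library by a median-ratio size factor. The level of a mouse is the mean over its weeks of log2(rescaled TPM + 1), turned back into rescaled TPM. Depth is unknown because TPM keeps none. Haemoglobin made up 8.92 to 73.1% of TPM per library and the small RNA Rn7s2 17.6 to 56.6%, and the number of genes at 1 TPM or more ran from 2552 to 11661. Control 490 at week 17 stood apart: this library's median correlation with the other late libraries was 0.441, against a median of 0.920, and mitochondrial genes made up 3.49% of its TPM. In that library Ngp was at 58.6 TPM against at most 3.47 in the other control libraries, and S100a8 at 4.07 against at least 89.7. The library of CML mouse 487 at week 14 had 3760 genes at 1 TPM or more, the fewest in the CML group. Mouse 487 had a haemoglobin share of 53.8 to 73.1%, against 8.92 to 62.0% in the other CML mice. Only batch 2021_E, as the labels call it, held both groups, with CML mice 480 and 541 against control mice 489 and 490. Mice 487 and 542 were in 2022_B and mouse 488 in 2022_A.

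The transgene separated 3 of the CML mice from the controls and left mouse 487 with the controls. The level of the human BCR-ABL1 row was 24.4 in mouse 480, 14.5 in 541, 8.20 in 542 and 0.0876 in 487. Control mice stood at 0.145 (488), 0 (489) and 0.068 (490). Mice 480, 541 and 542 were therefore far above every control, and 487 lay between 2 of them. All 13 libraries of those 3 mice held the transcript, at 3.29 to 49.7 TPM as deposited. It was listed at 0 in 4 of 5 libraries of 487 and in 12 of 15 control libraries, where it reached at most 0.716 TPM. Over all its 19 weeks mouse 487 was at 0 in 16 libraries and reached 0.409 TPM at most. The mean difference on the log2(rescaled TPM + 1) scale was 2.89, with an exact two-sided permutation p of 0.0857 (smallest possible 0.0286). Without mouse 487 it was 3.85 (exact permutation p = 0.1, the smallest that 3 against 3 mice allow). In the limma fit over all genes the adjusted p was 0.0517 with 487 and 0.00075 without it. The separate human ABL1 row (25.1, 16.6, 11.7 and 0.0698 against at most 0.0479) passed at an adjusted p of 0.0478. Mouse Bcr (0.73 ± 0.33) and mouse Abl1 (-0.41 ± 0.25) did not pass, with adjusted p of 0.137 and 0.247. Errors beside differences are limma standard errors throughout. Because 487 carries the CML label but not the transcript, list counts and the values of leading genes are given with it and without it.

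**Figure D1:**
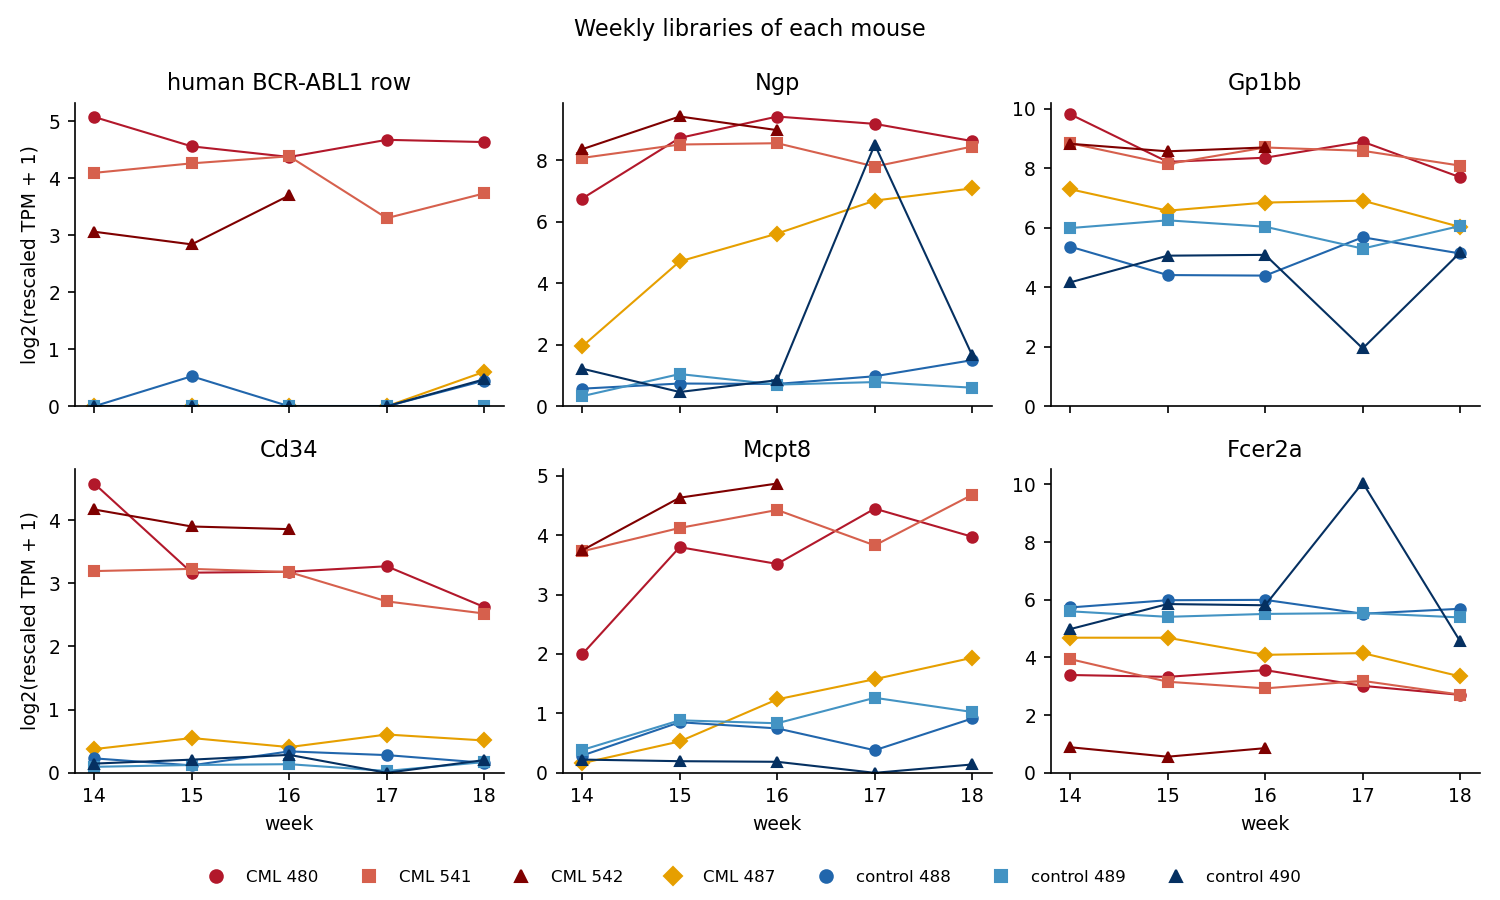
Weekly values of 6 genes. Each point is 1 library, on the log2(rescaled TPM + 1) scale, and lines join the weeks of a mouse. The BCR-ABL1 row and Cd34 of mouse 487 lie close to the controls, its Ngp moves from 2.85 at week 14 to 134 at week 18 in rescaled TPM, and the library of control 490 at week 17 departs from its neighbours in Ngp, Gp1bb and Fcer2a.

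Among the gene lists examined, genes of neutrophils and platelets were higher in late CML and genes of B cells were lower. These lists held 86 of the 926 higher and 27 of the 642 lower genes past the threshold, so most such genes belong to no list. Of 10518 genes tested, 926 (8.8%) were higher and 642 (6.1%) lower at a limma adjusted p of at most 0.05, in all 1568 (14.9%). Without mouse 487 the numbers were 1456 higher (13.8%) and 1665 lower (15.8%), in all 3121 (29.7%), and 1563 of the 1568 genes were among them. The values of all 4 CML mice lay above all 3 controls in 1883 genes (17.9%) and below them in 1653 (15.7%). Without 487 these numbers were 2415 (23%) and 3152 (30%). The count of genes past the threshold depended on single mice. It was 106 without CML mouse 480, 22 without 541, 358 without 542, 0 without control mouse 488, 3 without 489 and 38 without 490. Without the single library of control 490 at week 17 it was 3723 of 10516 tested, with 1293 higher and 2430 lower. Of these, 1496 were shared with the 1568. It was 2 with batch as a term, and 0 when each mouse was first set against its own week 0 or when weeks were averaged before the log. In these 3 limma fits 2044, 3511 and 4130 genes had an unadjusted p under 0.05, beside 3979 here and 2851 without control mouse 488. All 1568 genes kept their sign without 487, without that library, within batch 2021_E, and under 3 other ways of scaling. These genes were called in the same mice. The groups did not overlap in 916 of the 926 higher and 609 of the 642 lower genes. Their signs with fewer mice were thus largely fixed in advance and are no separate support. The split of calls did move with scaling: 59.1% were higher in CML here, 28.4% with TPM as deposited, 20.2% after removing haemoglobin and Rn7s2 and 71.2% with size factors from another set of genes. The median of all genes was -0.09 here and -0.33 with TPM as deposited, so small differences carry no direction of their own.

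**Figure D2:**
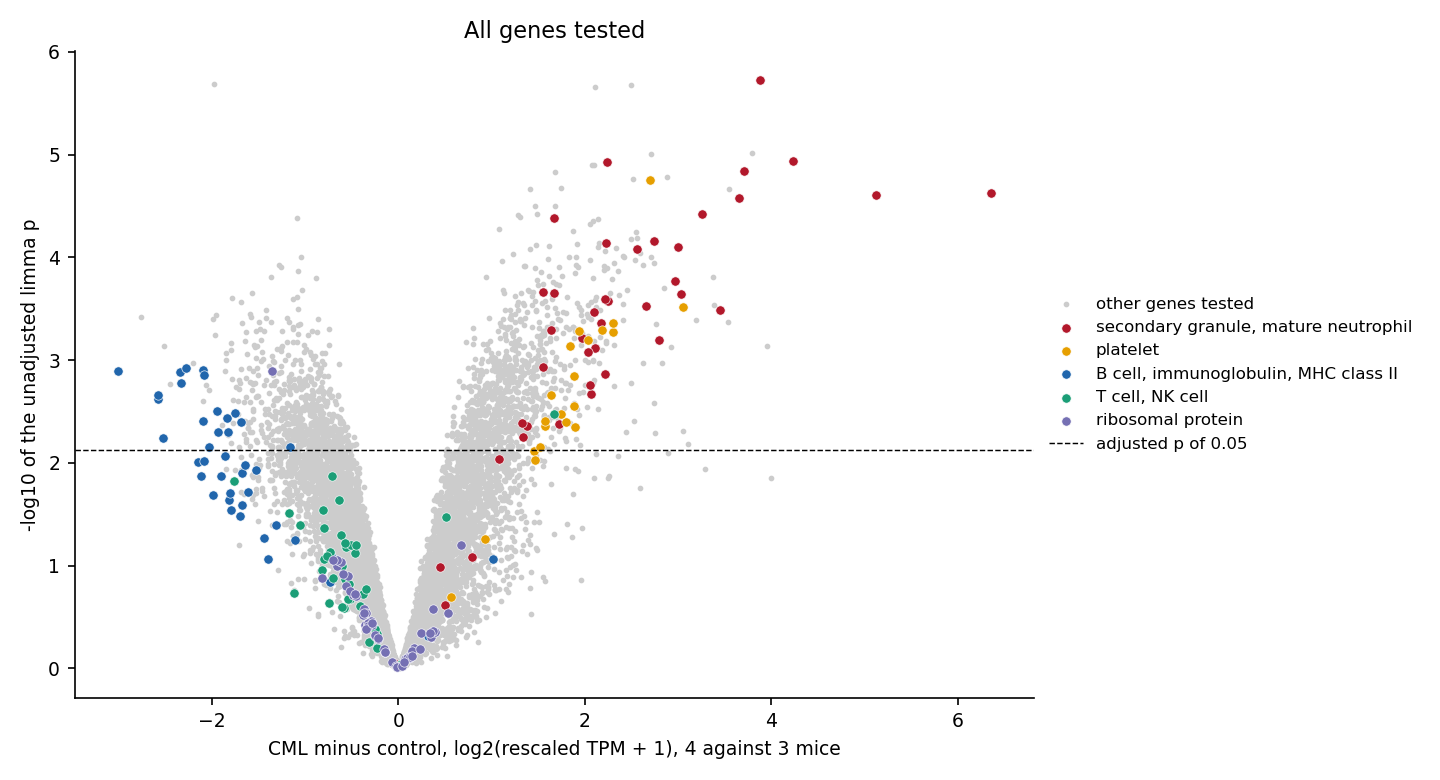
Difference between the groups for every gene tested (x axis, log2 scale) against the unadjusted limma p (y axis, -log10), 4 CML against 3 control mice. Coloured points are members of the named lists. Most neutrophil and platelet genes lie to the right above the dashed line, the level of an adjusted p of 0.05, while T and NK cell genes lie mostly below it.

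The 3 largest single differences, those of Ngp, Camp and Lcn2, were of secondary granule genes. Of 17 tested, 15 were higher and none lower, with a median difference of 2.24 against -0.09 over all genes tested, and 2.66 without mouse 487, where again 15 rose. The first were the cathelicidin-like proteins. Ngp, a neutrophilic granule protein (GRCm39 chromosome 9, 110248815 to 110252086, plus strand), had levels of 369 in mouse 480, 307 in 541, 480.5 in 542 and 35.9 in 487. Its control levels were 0.869 (488), 0.618 (489) and 4.81 (490). The rule that picked the largest differences required all CML mice to be above all controls, and 487 lay well below the other 3. The difference was 6.35 ± 0.84 (limma adjusted p = 0.0131), 7.19 ± 0.48 without 487 and 6.85 without the week 17 library of control 490, the library that raised the level of 490. Camp, the cathelicidin antimicrobial peptide, stood at 72.7, 53.2, 102 and 8.67 in CML mice 480, 541, 542 and 487, and at 0.171, 0.146 and 0.562 in control mice 488, 489 and 490. It rose by 5.13 ± 0.68 (adjusted p = 0.0131), and by 5.86 ± 0.28 without 487.

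Among the iron binders, Lcn2, which encodes the siderophore-binding lipocalin 2, was at 421 in 480, 421 in 541, 526 in 542 and 119 in 487, against 12.9, 14.1 and 23.8 in the controls (4.23 ± 0.51, adjusted p = 0.0123; 4.71 ± 0.32 without 487). Ltf, lactoferrin, was at 107, 107, 232 and 23.5 against 5.39, 9.61 and 7.28 (3.45 ± 0.63, adjusted p = 0.0229; 4.08 ± 0.37 without 487). In both, 487 was the lowest CML mouse. That it lay above every control was required by the rule that picked them. The collagenase gene Mmp8 rose by 3.70 ± 0.46, the chitinase-like Chi3l1 by 2.24 ± 0.27 and Chil3 by 2.80 ± 0.56. All 5 surface and membrane proteins rose, among them the neutrophil antigen Cd177 (3.03 ± 0.53) and Itgb2l, an integrin beta chain (2.96 ± 0.50). Cebpe, the transcription factor that drives secondary granule genes, was at 3.67, 4.54, 3.44 and 0.623 in the CML mice and at 0.276, 0.593 and 0.399 in the controls (1.38 ± 0.37, adjusted p = 0.042). Mouse 487 exceeded the highest control by little here. Cybb, a subunit of the phagocyte oxidase (0.45 ± 0.25), and Lyz2, lysozyme (0.50 ± 0.40), did not pass; both are also made by monocytes.

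The promoters of genes at the head of this group are shown because C/EBP factors are known to act on granule genes. Each runs from 250 bases before to 20 bases after the RefSeq start on GRCm38.p6, the build of that sequence table. Capitals mark the C/EBP motif TTGCNNAA, searched on both strands. RefSeq entries were found for 14 of the 15 genes with the largest rises.
Ngp (chr9:110419558-110419827, plus strand): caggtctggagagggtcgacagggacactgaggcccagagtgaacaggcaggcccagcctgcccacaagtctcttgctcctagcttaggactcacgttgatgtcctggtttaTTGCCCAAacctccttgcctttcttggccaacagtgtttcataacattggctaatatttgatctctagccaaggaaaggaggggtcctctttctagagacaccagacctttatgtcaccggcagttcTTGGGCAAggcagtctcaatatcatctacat
Camp (chr9:109849437-109849706, minus strand): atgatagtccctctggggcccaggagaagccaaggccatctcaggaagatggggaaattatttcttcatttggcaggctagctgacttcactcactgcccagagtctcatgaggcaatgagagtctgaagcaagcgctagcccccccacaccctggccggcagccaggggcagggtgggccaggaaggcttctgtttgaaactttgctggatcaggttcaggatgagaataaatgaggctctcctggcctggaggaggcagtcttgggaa
Ltf (chr9:111019042-111019311, plus strand): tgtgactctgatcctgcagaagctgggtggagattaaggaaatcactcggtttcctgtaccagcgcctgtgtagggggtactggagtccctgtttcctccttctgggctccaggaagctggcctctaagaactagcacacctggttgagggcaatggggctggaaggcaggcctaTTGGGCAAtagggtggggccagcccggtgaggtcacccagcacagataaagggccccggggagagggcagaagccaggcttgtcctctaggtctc
Lcn2 (chr2:32387720-32387989, minus strand): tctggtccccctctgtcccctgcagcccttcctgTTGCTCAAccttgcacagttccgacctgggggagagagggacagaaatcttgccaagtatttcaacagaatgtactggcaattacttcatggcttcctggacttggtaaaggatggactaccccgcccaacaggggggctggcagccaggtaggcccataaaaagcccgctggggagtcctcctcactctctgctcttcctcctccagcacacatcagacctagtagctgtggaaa
Mmp8 (chr9:7558179-7558448, plus strand): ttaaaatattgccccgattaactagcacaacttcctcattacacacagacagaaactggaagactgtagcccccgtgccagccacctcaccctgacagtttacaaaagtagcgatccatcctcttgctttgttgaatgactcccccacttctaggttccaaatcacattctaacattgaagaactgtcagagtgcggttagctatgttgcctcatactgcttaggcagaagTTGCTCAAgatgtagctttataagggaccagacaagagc
The Ngp window held 2 matches, starting at -138 and -11 from the start site. Ltf held 1 at -75, Lcn2 1 at -216 and Mmp8 1 at -19, while these letters are not in the Camp window. Of the 14 secondary granule genes with an entry, 4 (28.6%) held a match, beside 9.93% of 7697 tested genes and 11.5% of all 27025 genes with an entry. Over the other lists the share ran from 0% (as in 13 monocyte genes) to 75% (4 acute-phase genes). It was 23.1% for 13 NK cell and 21.4% for 14 T cell genes, so such a share is not particular to granule genes. A match of letters is a description and does not show binding.

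**Figure D3:**
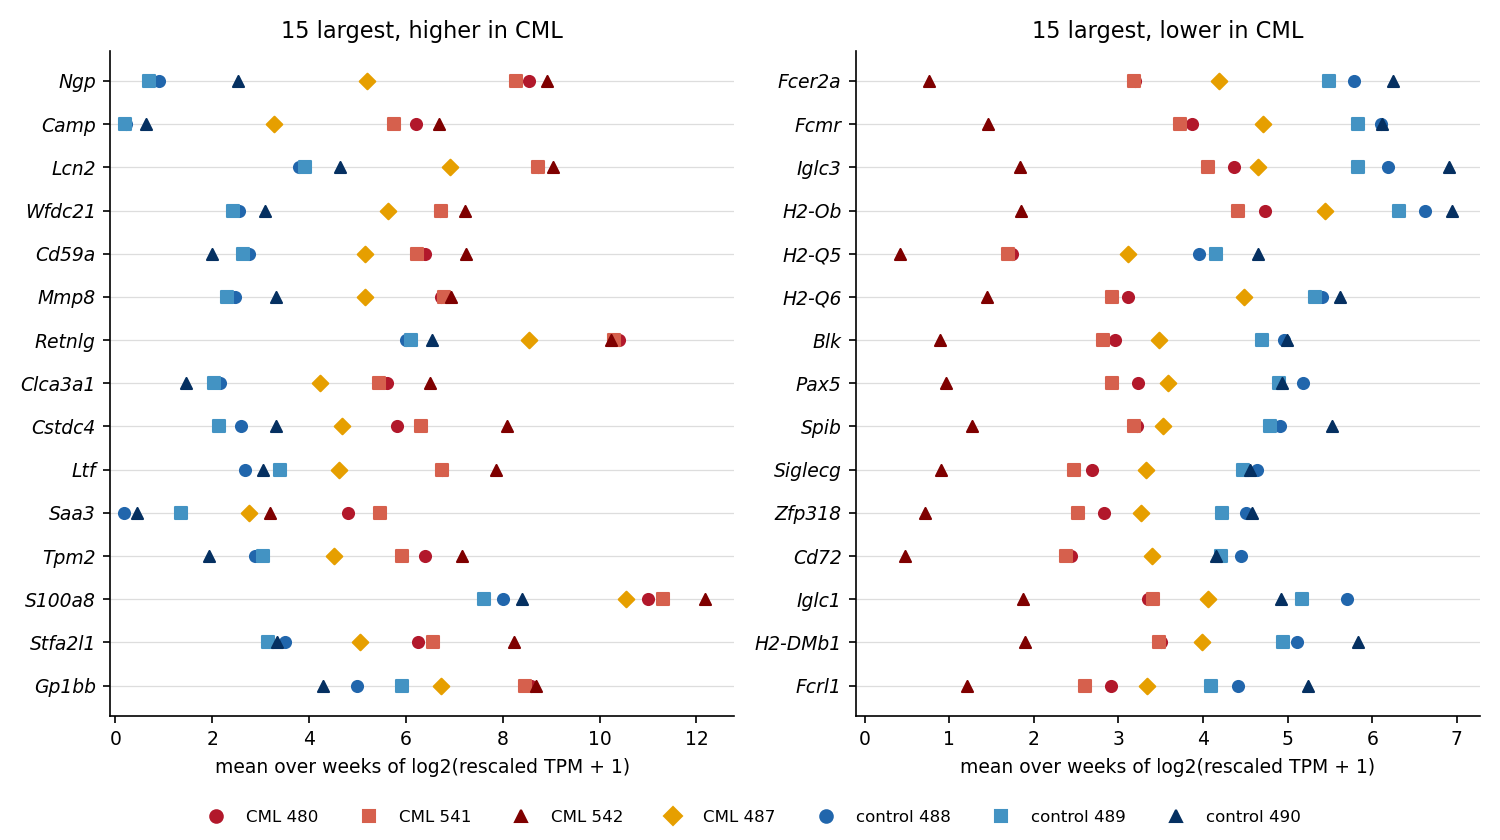
Level of each mouse (mean over weeks of log2(rescaled TPM + 1)) for the 15 genes with the largest rises and the 15 with the largest falls among those that passed. Red and brown symbols are CML mice 480, 541 and 542, orange diamonds CML mouse 487 and blue symbols control mice. In every row shown, 487 lies between the control mean and the mean of the other CML mice, and CML mouse 542 is lowest in each falling gene. Both sets were limited to genes whose groups do not overlap, so the side of the controls on which 487 lies was set by that choice.

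Genes of mature neutrophils rose nearly as a block: 21 of 24 tested were higher and none lower (median 2.04, and 2.38 with 22 higher without mouse 487). All 8 alarmins and secreted proteins were among them. With TPM as deposited 8 of the 24 passed (median 1.63), and after removing haemoglobin and Rn7s2 20 passed (median 1.77). S100a8, a subunit of calprotectin, stood at 2049 in 480, 2534 in 541, 4627 in 542 and 1484 in 487, against 255, 194 and 336 in the controls (3.26 ± 0.46, adjusted p = 0.0148; 3.50 ± 0.42 without 487). Every CML mouse was above every control, as the naming rule required, and here 487 came close to 480. Retnlg, a resistin-like secreted protein, was at 1358, 1252, 1210 and 371 against 63.4, 67.8 and 91.9 (3.65 ± 0.49). Wfdc21 had the smallest adjusted p of the list (3.87 ± 0.38, adjusted p = 0.00575).

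Of 8 receptors, 6 rose, among them the formyl peptide receptors Fpr1 (2.56 ± 0.39) and Fpr2 (2.74 ± 0.41) and the chemokine receptor Cxcr2 (78.7, 82.2, 98.2 and 34.4 against 12.6, 13.3 and 21.2). Csf3r, the receptor for granulocyte colony-stimulating factor, was at 181, 193, 131 and 91.8 against 60.9, 63.9 and 143 (0.79 ± 0.41, adjusted p = 0.181), so its groups overlapped through control 490. The neutrophil antigen Ly6g was at 25.7, 25.7, 22.1 and 11.5 against 0.725, 0.824 and 5.04. Among acute-phase proteins, 4 of 5 rose, and all 5 without 487, led by Ltf and by Saa3, a serum amyloid (26.8, 43.3, 8.12 and 5.81 against 0.14, 1.57 and 0.364; 3.39 ± 0.61). Of 6 stefin A genes, inhibitors of cysteine proteases whose copies are so alike that their separate values are uncertain, 1 rose (Stfa2l1, 3.19 ± 0.60). Without 487 4 of them rose, and 5 with TPM as deposited. Stfa2 had levels of 3.45, 2.91, 52.4 and 0.922 against at most 0.083, with mouse 542 far above the rest (adjusted p = 0.0725).

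Few early precursor genes were high enough to test. Of 12 primary granule genes listed, 5 passed the filter on low values, and 1 of these rose. This was Prtn3, the protease proteinase 3, at 6.79, 10.5, 4.92 and 2.42 against 0.323, 0.165 and 0.718 (2.24 ± 0.36, adjusted p = 0.018). Cd34, a surface protein of blood progenitors (GRCm39 chromosome 1, 194621029 to 194647172), was at 9.30 in 480, 6.82 in 541, 14.7 in 542 and 0.405 in 487, against 0.169, 0.0802 and 0.124 in the controls. It was thus abundant in the 3 CML mice with the transgene, while 487 stood just above the controls. The difference was 2.53 ± 0.67 (adjusted p = 0.0404) and 3.27 ± 0.26 without 487 (adjusted p = 0.00045). The other 2 progenitor genes tested, Gata2 (0.84 ± 0.40) and Myc (-0.13 ± 0.37), did not pass.

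Basophil genes showed a similar order of mice. Of 9 basophil and mast cell genes, 3 rose (beside 8.8% of all genes), and 6 without mouse 487 (beside 13.8%). Mcpt8, a protease stored by basophils, was at 10.7, 16.8, 20.3 and 1.12 in CML mice 480, 541, 542 and 487, and at 0.555, 0.837 and 0.109 in the controls (2.75 ± 0.68, adjusted p = 0.0351; 3.48 ± 0.29 without 487). Prss34, another basophil protease, was at 7.79, 13.9, 13.7 and 1.29 against 0.438, 0.43 and 0.126. Both put 487 a little above the control range and far below the other CML mice. Hdc, which makes histamine and is also active in neutrophils, was at 52.2, 45.6, 54.7 and 26.3 against 8.18, 11.3 and 12.7 (1.93 ± 0.31), with 487 clear of the controls. Cpa3, a mast cell and basophil carboxypeptidase, had an adjusted p of 0.084 with all mice and 0.014 without 487 (difference 1.25).

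Among the gene lists, platelet genes were the second large group that rose. Of 21 tested, 17 were higher and none lower (median 1.84; 2.05 and 18 higher without mouse 487), and in 20 of the 21 all CML mice lay above all controls. All 4 chains of the von Willebrand factor receptor rose. Gp1bb, its beta chain (GRCm39 chromosome 16, 18439067 to 18441153), was at 384 in 480, 353 in 541, 413 in 542 and 105 in 487, against 30.9, 59.7 and 18.5 in the controls (3.05 ± 0.56, adjusted p = 0.0227; 3.52 ± 0.42 without 487). Mouse 487 was again the lowest CML mouse. Selp, P-selectin, was at 37.9, 31.8, 31.9 and 15.5 against 3.81, 4.78 and 2.13 (2.70 ± 0.34, adjusted p = 0.0123), and the integrin chain Itgb3 rose by 2.30 ± 0.44. Among granule proteins Pf4, platelet factor 4, was at 2201, 1787, 3520 and 913 against 534, 633 and 468 (1.80 ± 0.48, adjusted p = 0.0407). Nrgn (0.57 ± 0.42) and Cd9 (0.93 ± 0.43) did not pass. With TPM as deposited 2 of the 21 passed, and after removing haemoglobin and Rn7s2 13 passed with a median of 1.57.

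Among the gene lists, B cell genes formed the main group that fell, although most of the genes that fell belong to no list. Of 21 tested, 10 were lower and none higher (median -1.86). Without mouse 487, 18 were lower (median -2.24), and without the week 17 library of control 490, 19. Fcer2a, the low-affinity IgE receptor CD23 (GRCm39 chromosome 8, 3731737 to 3744183), was at 8.19 in 480, 8.10 in 541, 0.702 in 542 and 17.2 in 487, against 54.0, 43.9 and 75.1 in the controls. All CML mice were below all controls, as the naming rule required, with 542 lowest and 487 nearest to the controls. The difference was -3.005 ± 0.67 (adjusted p = 0.029) and -3.46 ± 0.62 without 487. In the week 17 library of control 490 Fcer2a reached 1063 rescaled TPM, and without it the difference was -2.69.

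Of the 5 B cell transcription factors 4 fell: Pax5, which fixes B cell identity (8.35, 6.61, 0.955 and 11.0 against 35.4, 28.9 and 29.5; -2.33 ± 0.54), Spib (-2.28 ± 0.50), Bach2 (-1.95 ± 0.50) and Ebf1 (-1.76 ± 0.45). The kinase gene Blk (-2.35 ± 0.52) and the IgM receptor Fcmr (-2.58 ± 0.63) fell as well. Cd79a, part of the B cell receptor, was at 49.0, 42.3, 6.16 and 55.3 against 144, 122 and 69.6 and did not pass (adjusted p = 0.0838).

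Immunoglobulin and antigen presentation genes followed. Of 9 immunoglobulin genes 4 fell, 6 without mouse 487 and 7 without the week 17 library of control 490, among them Ighm, the IgM heavy chain, at 106, 102, 23.2 and 166 against 430, 312 and 275 (-2.03 ± 0.60, adjusted p = 0.0486), and Iglc3 (-2.58 ± 0.62), whose near copies make its own value uncertain. Of 11 MHC class II genes 4 fell (beside 6.1% of all genes), with a list median of -1.70. Without mouse 487, 5 fell (beside 15.8%), and 2 fell without the week 17 library of control 490. In that last fit 2430 of all 10516 genes tested were lower, so 2 of 11 is not above the share of all genes. H2-DMb1, a chain of the peptide-loading factor, was at 10.3, 10.2, 2.71 and 14.8 against 33.6, 29.9 and 56.0 (-2.08 ± 0.47), and Ciita, the master regulator of class II genes, fell by 1.83 on the log2 scale. The class II chain H2-Aa was at 169, 156, 26.1 and 175 against 406, 321 and 182 (adjusted p = 0.139), with 487 just under control 490. Of 14 MHC class I genes 2 fell with all mice (14.3%, beside 6.1% of all genes). Without mouse 487, 5 fell (beside 15.8% of all genes), among them H2-K1 and Nlrc5. Without that library of control 490, 7 fell, beside 2430 of all 10516 genes tested. The 2 were H2-Q6 (7.63, 6.56, 1.73 and 21.5 against 41.2, 39.0 and 48.0; -2.45 ± 0.57) and H2-Q4 (-1.56 ± 0.41). H2-Q5, outside the list, differed by -2.51 ± 0.52. Reads of Q genes can be split between near copies.

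**Figure D4:**
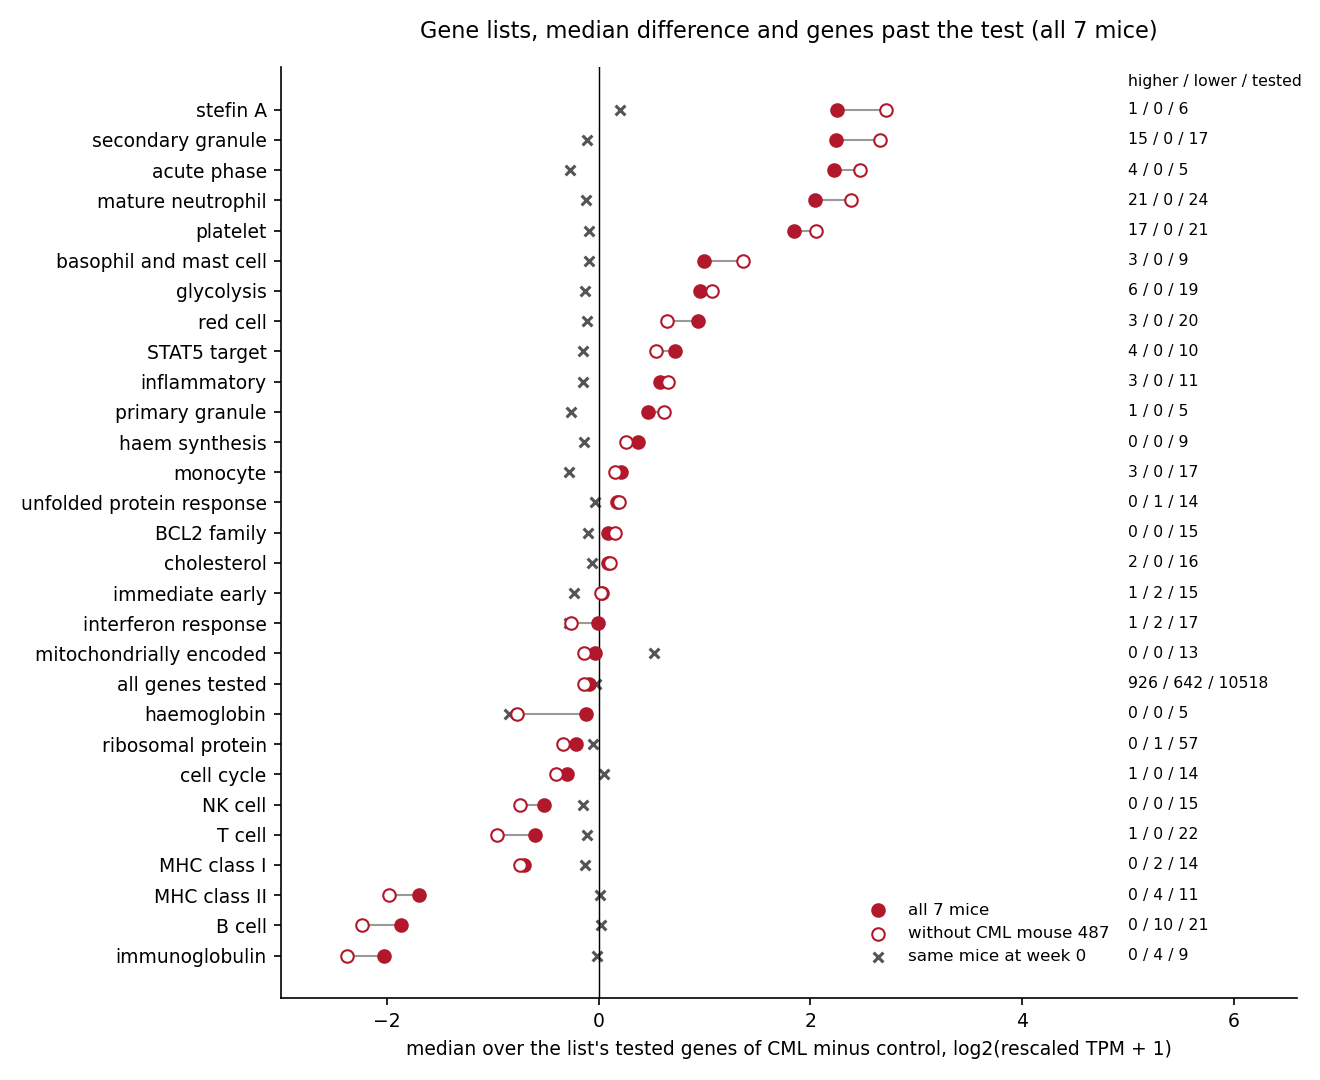
Median difference between CML and control mice over each list with 5 or more tested genes (x axis, log2(rescaled TPM + 1)), with all 7 mice (filled), without CML mouse 487 (open) and for the same mice at week 0 (crosses). Numbers at the right are genes higher, lower and tested with all 7 mice. The secondary granule, mature neutrophil, acute phase, stefin A and platelet lists lie between 1.84 and 2.25, and the B cell, immunoglobulin and MHC class II lists between -1.70 and -2.03.

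T and NK cell genes separated less clearly. Of 22 T cell genes none was lower and 1 was higher. That gene, Lat, encodes an adaptor of T cell receptor signalling that platelets also use, and its levels were 54.4, 42.2, 85.8 and 25.6 against 15.2, 21.5 and 8.71 (1.67 ± 0.43, adjusted p = 0.0383). Without mouse 487, 9 T cell genes fell, beside 15.8% of all genes (median -0.96 against -0.60 with it). Without the week 17 library of control 490, 1 T cell gene fell (median -0.67). Cd3e, a chain of the T cell receptor complex, was at 8.63, 5.85, 3.39 and 14.7 against 9.72, 16.2 and 26.0, so 487 lay within the control range (adjusted p = 0.117 with it and 0.037 without). The level of control 490 rests on its week 17 library, at 692.6 rescaled TPM against a median of 12.4 over the control libraries. None of 15 NK cell genes passed. Without 487, 9 fell, beside 15.8% of all genes. Without the week 17 library of control 490, 3 fell. In that fit 2430 of all 10516 genes tested were lower, so 3 of 15 is not above the share of all genes. Ncr1, an activating NK receptor, was at 1.15, 1.60, 0.588 and 3.16 against 4.34, 3.57 and 2.30. Klra9, an inhibitory Ly49 receptor, was at 0.261, 0.335, 0.237 and 1.42 against 1.58, 1.46 and 1.34, where 487 stood with the controls and the other 3 mice apart (-0.71 ± 0.24, adjusted p = 0.064; -0.94 ± 0.13 without 487). At such low levels the pseudocount of 1 shrinks differences.

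Of 17 monocyte genes 3 rose (17.65%, beside 8.8% of all genes), all from the 9 listed for classical monocytes. Without mouse 487 3 rose and 2 fell, beside 13.8% and 15.8% of all genes. Cd14, the lipopolysaccharide coreceptor, was at 38.1, 27.2, 38.0 and 9.91 against 2.31, 3.15 and 3.65 (2.71 ± 0.43, adjusted p = 0.018). F13a1, coagulation factor XIII, which platelets also hold (2.13 ± 0.44), and Vcan, versican (1.93 ± 0.46), were the others. Csf1r, the receptor that defines monocytes, was at 36.8, 49.1, 21.7 and 34.8 against 27.9, 28.1 and 33.9 (0.19 ± 0.31, adjusted p = 0.66). Cx3cr1, a marker of patrolling monocytes, was at 1.99, 3.12, 1.43 and 7.47 against 8.43, 6.28 and 30.2, with an adjusted p of 0.0598 with 487 and 0.0227 without it. The level of control 490 rests on its week 17 library, and without that library the adjusted p was 0.0479. The pan-leukocyte gene Ptprc overlapped between groups, with 67.5 to 152 rescaled TPM over the CML libraries and 42.5 to 156 over the control libraries.

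Targets of STAT5, the factor that BCR-ABL activates, were next examined. Of 10 genes on a list of such targets 4 rose, with 487 (beside 8.8% of all genes) and without it (beside 13.8%). The list median was 0.72 over all mice and 0.38 within batch 2021_E. Cish, a feedback inhibitor of cytokine signalling, was at 1.78, 1.66, 1.67 and 0.378 against 0.211, 0.395 and 0.156 (0.87 ± 0.25, adjusted p = 0.0457). It was even among the 3 mice with the transgene, and 487 lay within the control range. Socs3, another such inhibitor, was at 26.7, 22.8, 32.5 and 25.2 against 9.58, 11.1 and 13.8 (1.16 ± 0.24, adjusted p = 0.0266; 1.18 ± 0.25 without 487), and here 487 lay within the range of the other CML mice. Id1 (6.46, 5.44, 8.99 and 2.20 against 1.05, 1.33 and 1.55; 1.45 ± 0.34) and the cytokine gene Osm (1.38 ± 0.35) also rose. The kinase gene Pim1 (0.57 ± 0.28) and the survival gene Mcl1 (-0.08 ± 0.40) did not pass.

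The promoters of Cish and Socs3 are shown because both genes answer to STAT factors but placed mouse 487 on different sides. Build and window are as above, and capitals mark the STAT motif TTCNNNGAA, which reads the same on both strands.
Cish (chr9:107296409-107296678, plus strand): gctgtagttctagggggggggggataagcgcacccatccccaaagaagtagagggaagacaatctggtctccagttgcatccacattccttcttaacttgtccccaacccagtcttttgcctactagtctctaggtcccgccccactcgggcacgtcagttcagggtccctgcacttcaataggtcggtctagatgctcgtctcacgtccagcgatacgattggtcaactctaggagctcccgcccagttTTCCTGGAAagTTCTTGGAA
Socs3 (chr11:117969347-117969616, minus strand): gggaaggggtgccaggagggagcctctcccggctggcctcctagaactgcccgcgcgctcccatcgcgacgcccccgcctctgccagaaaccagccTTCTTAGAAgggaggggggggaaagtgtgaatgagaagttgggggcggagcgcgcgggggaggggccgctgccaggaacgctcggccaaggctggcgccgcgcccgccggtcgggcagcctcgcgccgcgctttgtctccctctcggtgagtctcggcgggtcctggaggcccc
The Cish window held 2 matches, starting 1 and 12 bases from the start site, and the Socs3 window 1, at -154. Of 6 list genes with an entry, these 2 (33.3%) held a match, beside 7.78% of tested genes and 8.74% of all genes with an entry. Over the other lists the share ran from 0% (as in 13 monocyte genes) to 100% (2 dendritic cell genes).

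Glycolysis genes rose in part: 6 of 19 were higher (beside 8.8% of all genes) and none lower (median 0.95). Without mouse 487, 10 rose (beside 13.8% of all genes). Without the week 17 library of control 490, 13 rose, beside 1293 of all 10516 genes tested. None was lower in either fit. Pgk1, phosphoglycerate kinase, was at 55.5, 55.8, 73.7 and 32.3 against 17.5, 16.3 and 19.1 (1.51 ± 0.31, adjusted p = 0.0254). Hk3, a hexokinase of myeloid cells, rose by 1.49 ± 0.32 and the glucose transporter Slc2a3 by 1.43 ± 0.34. With TPM as deposited none of the 19 passed and the median was 0.54. Of 16 cholesterol genes 2 rose (12.5%, beside 8.8% of all genes), and 6 without mouse 487 (beside 13.8% of all genes). The list median changed sign with the scaling (0.09 here, -0.13 with TPM as deposited and -0.22 without haemoglobin and Rn7s2). Idi1, an isomerase of the pathway, was at 1.90, 2.02, 1.94 and 1.26 against 0.882, 0.827 and 0.759 (0.60 ± 0.16, adjusted p = 0.0409). Of 11 inflammatory genes 3 rose (27.3%, beside 8.8% of all genes), and 4 without mouse 487 (beside 13.8% of all genes). With all mice these were Casp4 (1.25 ± 0.24), Cxcl2 (1.23 ± 0.31) and the interleukin-1 antagonist Il1rn (1.62 ± 0.42).

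Haemoglobin genes overlapped between the groups over all mice, while Hbb-bs, Hba-a1 and Hba-a2 were lower in CML within batch 2021_E. Hbb-bs, a beta globin, was at 58980 in 480, 58400 in 541, 613700 in 542 and 769800 in 487, against 306500, 246700 and 138600 in the controls. The CML mice thus stood on both sides of the controls, and none of 5 haemoglobin and none of 9 haem synthesis genes passed. The 2 high CML mice, 542 and 487, are in batch 2022_B, which held no control. Within batch 2021_E Hbb-bs differed by -1.66 (adjusted p = 0.0273), Hba-a1 by -1.66 (0.0318) and Hba-a2 by -1.74 (0.0251). At week 0, over all 7 mice, the difference of Hbb-bs was -0.77 (adjusted p = 0.9995). The other red cell genes had a positive difference in all 20 tested (median 0.94, and 0.19 within batch 2021_E), as did 8 of the 9 haem synthesis genes. Of the 20, 3 rose (15%, beside 8.8% of all genes). They were the regulators Nfe2 (102, 92.2, 115 and 75.4 against 40.9, 45.4 and 21.7; 1.44 ± 0.33) and Gata1 (1.39 ± 0.38) and the erythropoietin receptor Epor (1.29 ± 0.30). Nfe2 and Gata1 also act in megakaryocytes. Housekeeping groups moved little: of 57 ribosomal protein genes 1 fell (Rps27, -1.35 ± 0.30), and none of 13 mitochondrially encoded genes passed.

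Mouse 487 was then placed between the groups, with 0 at the control mean and 1 at the mean of the other 3 CML mice on the log2 scale. Over the 3121 genes called without it, its median place was 0.443 (quartiles 0.293 and 0.580). It lay within the control range in 783 of these genes (25.1%), within the range of the other CML mice in 217 (6.95%) and in neither in 2121. Over all genes tested the corresponding numbers were 4888, 1546 and 4084. The median place was 0.548 for 18 platelet genes, 0.516 for 22 mature neutrophil genes, 0.445 for 15 secondary granule genes and 0.454 for 18 B cell genes. For 10 T cell genes it was -0.02, for 9 NK cell genes -0.03 and for 6 basophil genes 0.102, with Cd34 at 0.0986. Within its 5 weeks the level of Ngp went from 2.85 at week 14 through 25.1, 47.9 and 102 to 134 at week 18, and that of Mcpt8 from 0.119 to 2.83, in rescaled TPM. Its BCR-ABL1 row was listed at 0 until week 17. It lay outside the control range in all 18 of these platelet genes, all 15 secondary granule genes and 14 of the 18 B cell genes, but inside it in 8 of 10 T cell and 7 of 9 NK cell genes. Whether its haemoglobin share or the depth of its libraries bears on these places was not tested.

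**Figure D5:**
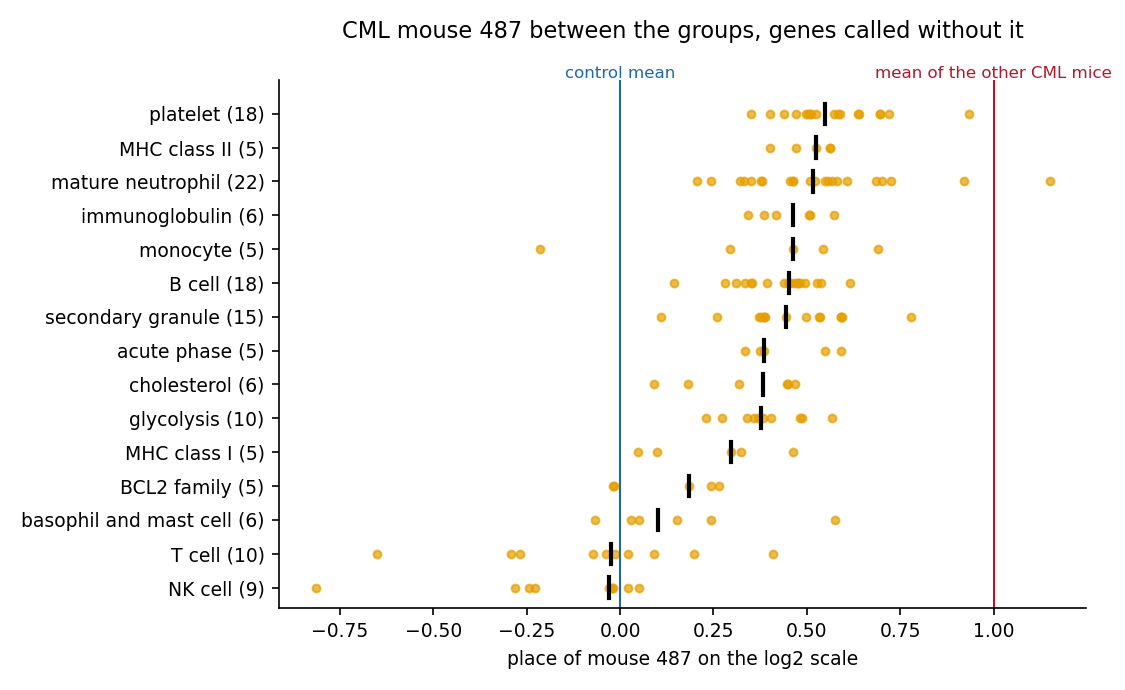
Place of CML mouse 487 for genes called without it, by list (number of genes in parentheses). The x axis is 0 at the control mean and 1 at the mean of CML mice 480, 541 and 542, each point is 1 gene and black bars are medians. Platelet, neutrophil and B cell lists lie near 0.5, while T cell, NK cell and basophil lists lie near 0.

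Genes were also singled out by where 487 stood. The 5 with the smallest p and 487 within the range of the other CML mice included Atf5, a stress-response transcription factor, at 10.3, 14.6, 13.8 and 12.1 against 2.10, 2.70 and 1.77 (2.10 ± 0.21, adjusted p = 0.00575), and Acadsb, an enzyme of branched-chain acid breakdown (8.34, 8.60, 9.24 and 9.11 against 3.18, 2.40 and 2.54). Both were nearly level over the 4 CML mice, which a choice by small p and by the place of 487 favours. Weekly values of Atf5 in 487 were less even, from 67.4 at week 14 to 2.20 at week 18. With 487 within the control range were Il1r2, the decoy interleukin-1 receptor (55.8, 38.3, 62.0 and 16.1 against 8.23, 9.20 and 17.2), the immediate early gene Ier3, Mlec, Nme1 and Ifi213. Nme1, a nucleoside diphosphate kinase, was at 12.1, 10.6, 9.16 and 3.65 against 3.63, 3.96 and 3.88.

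At week 0, before tetracycline was withdrawn, the same 7 mice showed no such pattern. No gene passed in the limma fit (378 of 10512 had an unadjusted p under 0.05), and the list medians were -0.12 for secondary granule, -0.09 for platelet and 0.02 for B cell genes. Ngp was at 0.46 to 0.68 in the CML mice and at 0.47 to 0.86 in the controls at that time. The late difference within batch 2021_E alone, 2 mice against 2, was 6.79 for Ngp, 3.42 for Gp1bb, 3.03 for Cd34 and -2.68 for Fcer2a. In that batch 550 genes passed, 490 of them among the 1568. Batches 2022_A and 2022_B held 1 group each in these weeks and gave no value of their own. With batch as a term the group difference therefore also rested on batch 2021_E alone. In that fit 2 genes passed with mouse 487 and 558 without it, and neither count is a separate result.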

How the data were processed

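Total RNA of weekly mouse blood, depleted of ribosomal RNA, was sequenced, and the authors deposited 1 table of TPM values for 14605 genes in 298 libraries. Reads were aligned and quantified with STAR and Salmon on GRCm39, per the submitters' processing notes; versions are not given in the sources used here. TPM was divided by a median-ratio size factor per library over 5313 genes (mean TPM of at least 5, above 0 in at least 95% of libraries). Values of log2(rescaled TPM + 1) were averaged over weeks 14 to 18, giving 1 value per mouse, and 10518 genes (those averaging 1 TPM or more over the series) entered limma 3.58.1 (eBayes with trend, R 4.3.3), with Benjamini-Hochberg adjustment over all of them and a threshold of 0.05. Fold changes on this scale understate those of low genes. Gene positions come from GENCODE M39 (14537 identifiers matched) and promoters from RefSeq. The tests were tested on simulated data with 50 changed genes per size. With all 7 mice, 7 were recovered at a true log2 difference of 1, 35 at 2, 50 at 4 and 37 at -2, with 8 false calls. A gene that did not pass can therefore still differ. The members and lists were chosen with earlier results of these data known.

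Genes were named by rule: the 15 largest differences in each direction among genes past the threshold with a level of at least 5 and groups that did not overlap, up to 4 genes per list with the smallest p, the transgene rows with Bcr and Abl1, and 5 genes each with mouse 487 in the control or the other CML range. Other list members were named after their values were seen. Week, batch, sex, scaling, pseudocount, filter and each mouse were varied as alternatives. Values of a few list members are not reported here.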

Additional observations from a re-analysis of the deposited data

Results flagged for a closer look

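Among the 4 CML mice, 13 of the 144 named genes (9.03%) had 1 mouse standing apart, meaning that its gap to the nearest mouse, divided by the whole range, exceeded Dixon's 95% critical value for 4 samples. For independent genes chosen without regard to their values chance gives about 1 in 20; these genes were chosen by their p and some by the place of mouse 487, and many are related, so that rate is no yardstick for them. Mouse 487, with almost no transgene transcript, was the one apart in 12 of them.

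It was lowest for the neutrophil genes Retnlg (0.911), Mmp8 (0.885), Hp (0.878) and Lcn2 (0.849) and for the platelet gene Gp1bb (0.885). It was also lowest for the STAT5 target Cish (0.936), the inflammasome gene Nlrp3 (0.906), the glycolysis gene Ldha (0.857), the cholesterol genes Idi1 (0.854) and Msmo1 (0.835), and Mlec (0.835). Levels of Nlrp3 were 10.7 in 480, 10.1 in 541, 10.6 in 542 and 5.96 in 487, against 5.30 to 5.61 in the controls. Levels of Ldha were 105, 94.8, 104 and 51.9 in the same order, against 29.7 to 38.6.

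For the NK receptor gene Klra9 (0.887) mouse 487 was highest. For the B cell transcription factor Spib (0.849) mouse 542 was the one apart, as the lowest.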

How the results depend on the processing

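Of the 84 named genes past the threshold, all kept their direction in each of the 26 alternatives, where they were tested. Kept directions are little support, because the genes were called in these same mice at that threshold. The number still past it was 47 with TPM as deposited, 76 without haemoglobin and Rn7s2, 61 with a pseudocount of 0.1, 56 in batch 2021_E, 1 with batch as a term and 0 for the change from week 0 and for the log2 of the mean over weeks.

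The count of 1568 genes became 522 with TPM as deposited, 723 with a pseudocount of 0.1, 975 with a mean TPM of at least 5, 2856 with the median over weeks, 0 with the log2 of the mean over weeks, 4316 with weeks 14 to 16 only, 2881 with week 16 only, 3723 without the library of control 490 at week 17, 2 with batch as a term, 0 for the change from week 0, 550 in batch 2021_E only and 3323 with mouse as a random effect over all libraries. Leaving out 1 mouse gave 0 to 3121.

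Without mouse 487 the count of 3121 became 708 with TPM as deposited, 1441 with a pseudocount of 0.1, 1545 with a mean TPM of at least 5, 5095 with the median over weeks, 6042 with weeks 14 to 16, 5498 without the week 17 library of control 490, 558 with batch as a term and 1216 for the change from week 0. Leaving out a further mouse gave 1052 to 4680. At week 0 the count of 0 became 15 with TPM as deposited, 1 with a pseudocount of 0.1, 2 with no filter, and 0 to 1 without a mouse. The cause of these shifts was not tested.

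List medians larger than the spread between mice that changed sign were those of monocyte genes (-0.10 with TPM as deposited, -0.10 without haemoglobin and Rn7s2, -0.10 with weeks 14 to 16), of the unfolded protein response (-0.13, -0.15, and -0.0513 with week 16 only) and of eosinophil genes (0.39 with no filter). Medians near 0 also changed sign under some settings: those of the cholesterol, BCL2 family, immediate early, interferon, haemoglobin and mitochondrially encoded lists. Leaving out 1 library of mouse 487 (week 14) was added after seeing the data and left 1715 genes.

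No paired analysis was possible because the groups share no mouse numbers. The design has 4 mice against 3, batches that mostly hold 1 group, and values with no depth. The standard errors cover the spread between mice only. The labels give 1 blood sample per mouse and week, and the transgene mouse line and strain were shared by both groups.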

Other observations

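Interferon and immediate early genes passed the test about as often as all genes (8.8% higher and 6.1% lower). Of 17 interferon response genes tested, 1 (5.88%) was higher and 2 (11.8%) were lower. The higher one was Oasl2 (32.3, 41.8, 32.7 and 47.3 in CML mice 480, 541, 542 and 487 against 20.6, 23.4 and 12.8 in controls 488, 489 and 490; limma adjusted p = 0.0463). Mx1, an antiviral GTPase, was lower (0.318, 0.529, 0.102 and 1.23 against 1.84, 2.24 and 1.90; -1.001 ± 0.23), as was Ifit3 (-0.87 ± 0.23). Of 15 immediate early genes 1 (6.67%) was higher and 2 (13.3%) were lower: Ier3 was higher (1.80 ± 0.52), and Fosb (-1.34 ± 0.29) and Dusp2 (-1.56 ± 0.40) were lower. The medians of both lists changed sign with the scaling.

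Of 14 cell cycle genes 1 (7.14%, beside 8.8% of all genes) was higher, the mitotic cyclin Ccnb2 (2.03, 2.22, 3.83 and 3.52 against 0.868, 0.891 and 0.644; 1.09 ± 0.21). The list median was -0.30. Of its S phase genes 0 of 8 had a positive difference, and of its G2 and M phase genes 5 of 6, beside 4675 of all 10518 genes tested. The G2 and M phase median was 0.82 over all mice and 0.17 within batch 2021_E, and the S phase median -0.44 and -0.35. Summed rescaled TPM of the G2 and M phase genes was 35.6 in 480, 36.3 in 541, 117 in 542 and 218 in 487. In controls 488, 489 and 490 it was 50.0, 49.7 and 114. Of 14 genes of the unfolded protein response 1 (7.14%, beside 6.1% of all genes) was lower, Herpud1 (-0.77 ± 0.23). None of 15 BCL2 family genes passed with all mice. Without mouse 487, 4 were higher (beside 13.8% of all genes) and 1 was lower (beside 15.8%). The lower one was the survival gene Bcl2 (-0.96, limma adjusted p = 0.0321). Of 2 eosinophil genes tested, the interleukin-5 receptor Il5ra was lower (-0.83 ± 0.20) and Ear2 did not pass (-0.03 ± 0.29). Eosinophil markers went the other way at low levels. Prg2 had a median of 0.930 rescaled TPM over CML libraries against 0.0196 over control libraries, and Siglecf 1.25 against 0.706. None of 3 dendritic cell genes passed. Without the week 17 library of control 490, 2 were lower, beside 2430 of all 10516 genes tested. Tcf4, which is also active in B cells, was lower without 487 (-1.51, limma adjusted p = 0.0178).

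Outside the lists, 3 of the 15 largest rises were Cd59a, an inhibitor of complement (83.1, 73.8, 151 and 34.5 against 5.80, 5.19 and 3.02; 3.79 ± 0.45), Clca3a1 (3.55 ± 0.46) and the tropomyosin gene Tpm2 (3.37 ± 0.56). In all 3 the order of mice was the same, with 542 highest and 487 lowest among the CML mice.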
